A study of Mus musculus with 144 samples.

Results

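The major urinary proteins are small secreted carrier proteins of the lipocalin family. The male mouse liver makes them in large amounts under growth hormone and androgen control, and they pass from blood into urine, where they bind volatile scent molecules. Their genes lie side by side on 1 chromosome, and a central group of them is nearly identical in sequence, while Mup3, Mup4, Mup5, Mup20 and Mup21 are more divergent. The members described here are the 7 genes Mup3, Mup4, Mup5, Mup15, Mup17, Mup20 and Mup21, chosen by symbol from the 24421 gene symbols of the tables, of which 21 are Mup genes. Each member has 1 transcript row. On mm9 they lie on the minus strand of chromosome 4, from Mup4 (NM_008648, 59969678 to 59973537) through Mup15 (NM_001200004, 61096819 to 61100736), Mup17 (NM_001200006, 61252963 to 61256864), Mup5 (NM_008649, 61492353 to 61496214), Mup20 (NM_001012323, 61711269 to 61715151) and Mup3 (NM_001039544, 61744511 to 61748346) to Mup21 (NM_001009550, 61808866 to 61811875).

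The 144 RNA-seq libraries, in 48 groups of 3, come from male mice of strain C57BL/6J fed normal chow. Controls, labelled WT, were set against mice labelled REV-ERB a/b double knockout, which lack both REV-ERB repressors of the circadian clock in adult hepatocytes only. Whole liver was taken at ZT (zeitgeber time) 1, 4, 7, 10, 13, 16, 19 and 22, after ad libitum or reverse-phase feeding, with 24 libraries per genotype and schedule. Endothelial cells and Kupffer cells, the resident macrophages of the liver, were isolated at ZT 4, 10, 16 and 22, with 12 libraries per genotype and cell type; their feeding schedule is not given in the labels. The deposited columns call the genotypes GFP and CRE, so the vector delivered may also differ between them and cannot be told apart from the deletion. No label says which libraries come from separate animals, so p-values measure the spread between libraries.

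Liver libraries of the ad libitum table held 4.57e6 to 10.4e6 counts, and reverse-phase libraries were deeper, at 13.1e6 to 26.2e6. Whole-transcript rows of Nr1d1 and Nr1d2, which encode the REV-ERBs, do not show whether some of their exons were deleted, and their medians, in CPM (counts scaled to a common library total), were 48.1 and 61.8 in ad libitum knockout livers against 15.5 and 44.5 in controls. Hepatocyte markers fitted the liver label, with Alb at 58510 to 120900 CPM ad libitum. In bulk tissue, fewer cells of a type and less RNA per cell cannot be told apart. Alb had a median of 76620 CPM in ad libitum knockouts against 98710 in controls, and of 65110 against 84910 in the reverse-phase table. Most other hepatocyte markers did not share this: 11 of 12 markers ad libitum and 10 of 12 in the reverse-phase table had a higher median in knockouts. In the reverse-phase table Tat was also lower, at 1041 against 1118 CPM. The 12 markers summed, Alb included, had knockout medians of 0.151e6 against 0.166e6 CPM ad libitum and 0.137e6 against 0.147e6 in the reverse-phase table. All 12 endothelial markers had a higher knockout median under each schedule, with summed medians of 206 against 158 CPM ad libitum and 227 against 189 CPM in the reverse-phase table, as did 6 of 12 Kupffer markers. The part of these shifts in the values below was not tested beyond the fits adjusted for hepatocyte markers given with the alternatives. Endothelial and Kupffer libraries carried their own markers and also hepatocyte RNA, given with their results. Control libraries ZT 16 replicate 2 and ZT 22 replicate 2 of the ad libitum table and knockout libraries ZT 22 replicates 2 and 3 of endothelial cells stood apart, by their spread from their group, by a trend with transcript length or, for the control ZT 22 library, by 12.3% of counts on the ribosomal transcript Rn45s.

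How far a count can be credited to 1 member depends on sequence. Transcripts of the 7 genes in GENCODE vM21 were split into all stretches of 50 bases, a length chosen for illustration since the read length is not given in the sources used here. Only the 22 protein-coding Mup genes annotated there were searched, so the shares given here are upper limits. For Mup15 0.0% of these stretches were found in no other of these genes, and the tables themselves list Mup15 at 2 genomic copies. For Mup17 the share was 21.9%. The shares were 95.3% for Mup20, 87.7% for Mup4, 84.1% for Mup3, 83.9% for Mup5 and 80.9% for Mup21. Mup15 and Mup17 transcripts were 98.3% identical, with 14 substitutions, and every other pair of members was at most 91.9% identical. Values of Mup15, and to a lesser degree Mup17, are therefore uncertain as single genes. Those of the other 5 rest mostly on stretches found in no other protein-coding Mup gene.

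The same split appears upstream of the genes. RefSeq promoter sequences (GRCm38.p6) were held for 5 of the 7 members, not for Mup5 and Mup20. The homologous stretch ending at the TATA box is shown. Mup15 and Mup17 are nearly the same in it, whereas Mup3, Mup21 and Mup4 differ more. Any relation of this stretch to the differences between genotypes was not tested. In Mup17 the capitals mark the TATA box, and in the others the bases that differ from Mup17 after alignment.
Mup17, chr4:61595851-61596045, minus strand: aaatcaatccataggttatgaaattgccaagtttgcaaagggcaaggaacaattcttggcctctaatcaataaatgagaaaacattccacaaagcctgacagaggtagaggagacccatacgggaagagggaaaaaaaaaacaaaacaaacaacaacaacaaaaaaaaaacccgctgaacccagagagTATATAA
Mup15, chr4:61439723-61439915, minus strand: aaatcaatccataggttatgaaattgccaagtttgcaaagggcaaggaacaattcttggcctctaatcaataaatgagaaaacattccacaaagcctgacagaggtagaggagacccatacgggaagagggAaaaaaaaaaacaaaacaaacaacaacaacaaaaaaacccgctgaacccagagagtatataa
Mup3, chr4:62087322-62087481, minus strand: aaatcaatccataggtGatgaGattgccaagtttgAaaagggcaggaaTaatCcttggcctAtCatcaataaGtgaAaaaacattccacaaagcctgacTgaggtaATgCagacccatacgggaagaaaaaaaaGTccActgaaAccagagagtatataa
Mup21, chr4:62150843-62150999, minus strand: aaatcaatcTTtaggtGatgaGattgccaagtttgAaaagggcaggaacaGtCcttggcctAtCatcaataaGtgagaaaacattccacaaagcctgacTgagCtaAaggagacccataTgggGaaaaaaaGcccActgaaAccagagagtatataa
Mup4, chr4:59960690-59960852, minus strand: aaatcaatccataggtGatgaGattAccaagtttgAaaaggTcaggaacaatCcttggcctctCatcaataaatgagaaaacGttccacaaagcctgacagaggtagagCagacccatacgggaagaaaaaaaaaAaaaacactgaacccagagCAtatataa

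Mup15 differed from Mup17 in this stretch by 0 substitutions and 4 gap positions. Mup3 differed by 17 substitutions and 35 gap positions, Mup21 by 18 and 38, and Mup4 by 12 and 32. Over the whole 300-base windows of the table, searched on both strands, TATATAA was present in all 5 members and in 3.24% of the 32851 promoters. AGGTCA, the hexamer bound by many nuclear receptors including the REV-ERBs, was present in Mup4 among the 5 and in 16.3% of all promoters. TTCNNNGAA, the form bound by STAT proteins, TTATGTAA, bound by clock output factors of the PAR bZIP family, and CACGTG, the E-box, were in none of the 5 windows and in 8.3%, 0.938% and 7.15% of all promoters. A match or its absence here describes letters in 1 window only.

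In ad libitum control liver the members spanned more than 3 orders of magnitude. Per kilobase of transcript, mean CPM after scaling of the libraries were 7070 for Mup3, 1891 for Mup20, 245 for Mup17, 173 for Mup15, 144 for Mup21, 6.63 for Mup5 and 2.83 for Mup4. The ranges of Mup17, Mup15 and Mup21 overlapped, so their order is not resolved. Mup3 made up a median of 75.6% of the summed counts of the family and Mup20, which encodes the male scent protein darcin, 18.5%. Mup4 and Mup5, known for expression in glands and nasal tissue, were nearly absent. The 7 genes together took a median of 0.856% of all counts in controls.

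The genotypes differed most for Mup17. Control CPM ran from 2.20 over a median of 124 to 1177, and knockout CPM from 0.397 over a median of 1.53 to 4.77. In all, 23 of 24 controls lay above every knockout library, and at 8 of 8 times all 3 knockout libraries lay below all 3 controls. The fitted daily mean fell by 6.95 (SE 0.56) on the log2 scale, 124-fold (edgeR quasi-likelihood adjusted p = 1.2e-13). The one control inside the knockout range was ZT 19 replicate 3, at 2.20 CPM.

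Mup15 followed at a smaller size. It ran from 4.56 over a median of 102 to 707 CPM in controls and from 1.42 over 19.8 to 84.4 CPM in knockouts. Controls and knockouts overlapped, with 14 of 24 controls above all knockouts, and the knockout mean was lower at 8 of 8 times. The daily mean fell by 2.69 (SE 0.42) on the log2 scale, 6.46-fold (edgeR adjusted p = 2.0e-06).

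The abundant Mup3 changed little. Its control CPM were 4498 to 8194 with a median of 6351, and its knockout CPM 3760 to 7269 with a median of 5077. The groups overlapped over most of their ranges. The daily mean fell by 0.25 (SE 0.07) on the log2 scale, 1.19-fold (edgeR adjusted p = 0.0038). Mup5 fell by 0.33 (SE 0.11; edgeR adjusted p = 0.019) between control values of 3.77 to 9.24 CPM and knockout values of 2.98 to 7.26 CPM. Mup4 did not pass the threshold, at -0.41 (SE 0.16; edgeR adjusted p = 0.051), and had a median of 2.35 CPM in controls and 1.88 CPM in knockouts.

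The other two members rose. Mup21 ran from 57.2 over a median of 102 to 156 CPM in controls and from 82.8 over 145 to 299 CPM in knockouts, and 10 of 24 knockout libraries lay above every control. Its daily mean was higher by 0.59 (SE 0.12) on the log2 scale, 1.51-fold, and the knockout mean was higher at 8 of 8 times (edgeR adjusted p = 0.00015). Mup20 ran from 859 over 1640 to 4065 CPM in controls and from 1189 over 2023 to 4580 CPM in knockouts. It was higher by 0.43 (SE 0.13) on the log2 scale, 1.35-fold, with a higher knockout mean at 7 of 8 times (edgeR adjusted p = 0.014).

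**Figure D1:**
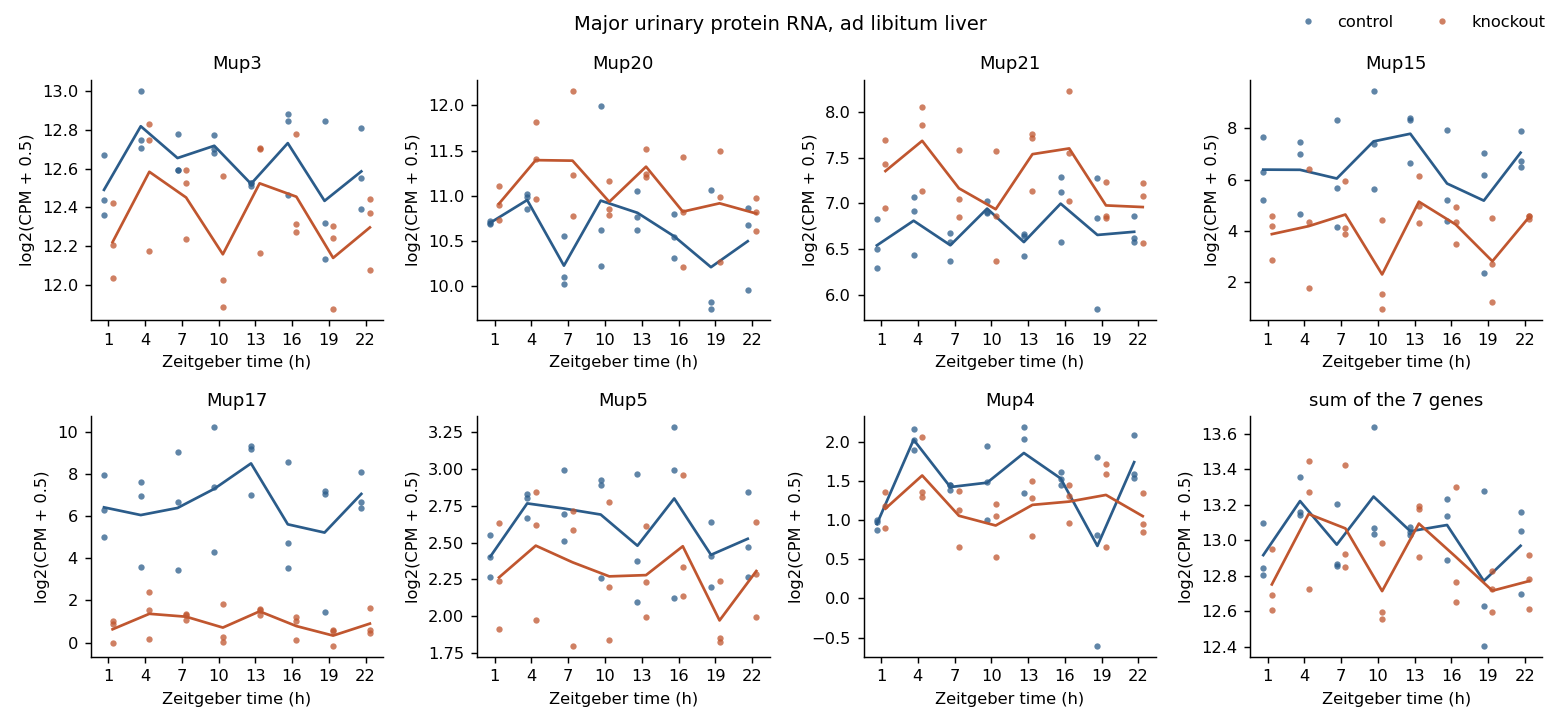
Normalised level of each member and of their sum in ad libitum liver, as log2(CPM + 0.5), against zeitgeber time in hours; points are libraries (3 per genotype and time) and lines join the means of the log values. Mup17 points separate by genotype at all 8 times, Mup15 shifts with overlap, Mup20 and Mup21 lie higher in the knockout, and the sum overlaps.

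Of the 7 members tested ad libitum, 6 were called at an adjusted p under 0.05, 2 higher and 4 lower. Over all 12534 genes tested, 27.2% were called, 13.7% higher and 13.5% lower in the knockout. The members' median difference on the log2 scale was that of Mup5, -0.33, beside a median of 0.00 over all genes tested. The family sum, in which Mup20 and Mup21 rose while Mup3, Mup15 and Mup17 fell, did not pass the threshold. It ran from 5425 over 8535 to 12735 CPM in controls and from 6026 over 7326 to 11162 CPM in knockouts, a difference of -0.13 (SE 0.07; edgeR adjusted p = 0.187). The make-up of the sum shifted: the median share of Mup20 was 18.5% in controls and 27.7% in knockouts, and that of Mup17 1.40% and 0.0177%. Without the 2 control libraries that stood apart, the same numbers of members were called (2 higher, 4 lower), and Mup17 fell by 6.76.

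The other 14 Mup symbols of the tables, mostly the near-identical central genes, were tested where they passed the filter. Ad libitum, 11 of 13 tested were lower and 0 higher in the knockout, with a median difference of -1.23 on the log2 scale. They include Mup2 at -1.50 (SE 0.19; edgeR adjusted p = 1.8e-08) and Mup11 at -1.96 (SE 0.28; edgeR adjusted p = 5.5e-07), named here because they share most stretches with Mup15 and Mup17, and they share reads with one another, so the count is not one of independent genes. With all 21 symbols added up, the sum fell by 0.31 on the log2 scale (edgeR adjusted p = 0.0072), a choice made after seeing the data. The result for the sum thus depends on which genes enter it.

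In ad libitum controls, libraries of the same group differed most in Mup15 and Mup17. Within groups of 3, the SD of log2(CPM + 0.5) in ad libitum controls was 2.33 for Mup17, 1.70 for Mup15, 0.48 for Mup20, 0.34 for Mup21 and 0.19 for Mup3, beside a median of 0.22 over all genes tested. Of the 12534 genes, 1 had a larger SD than Mup17 and 6 a larger SD than Mup15. At ZT 10, for example, the 3 controls had 1177, 18.9 and 166 CPM of Mup17 and 707, 48.7 and 166 CPM of Mup15. In the knockout the SD of Mup17 was 0.66 and that of Mup15 was 1.37. Mup17 had a median of 1.53 CPM there, where the added 0.5 compresses the SD, so the 2 genotypes are not alike in this measure. In reverse-phase controls the SD was 1.86 for Mup15, 1.44 for Mup17, 0.97 for Mup21, 0.80 for Mup20 and 0.50 for Mup3, beside a median of 0.24. In reverse-phase knockouts Mup17 had the lowest SD of the 5, at 0.43, against 0.81 for Mup3, 0.89 for Mup20, 1.15 for Mup21 and 2.13 for Mup15. Its median there, 0.289 CPM, lay below the added 0.5, which keeps the SD small. The low SD of Mup17 therefore does not show that its libraries varied less.

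The libraries high in Mup15 were those high in Mup17. Across the 24 ad libitum controls, log2 CPM of the pair correlated at a Pearson r of 0.97 and a Spearman rho of 0.96 (permutation p = 1e-05 for each, the smallest that 100000 permutations can give; adjusted 3.6e-05 and 4.4e-05 over 40 pairs and groups). Leaving out the 2 libraries farthest from the median left r at 0.96, and r was 0.98 for deviations from the group means. The pair gave an r of 0.76 in ad libitum knockouts, 0.91 in reverse-phase controls and 0.88 in reverse-phase knockouts, with an adjusted permutation p of 3.6e-05 for each r. The rho values were 0.63, 0.90 and 0.83. The part that reads shared between the 2 genes play in this was not tested. Mup3 and Mup21, which share 12.6% of the Mup3 stretches, correlated at 0.76 in ad libitum controls (rho 0.69, adjusted permutation p = 1e-04 and 0.0012) and 0.82 in knockouts.

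**Figure D2:**
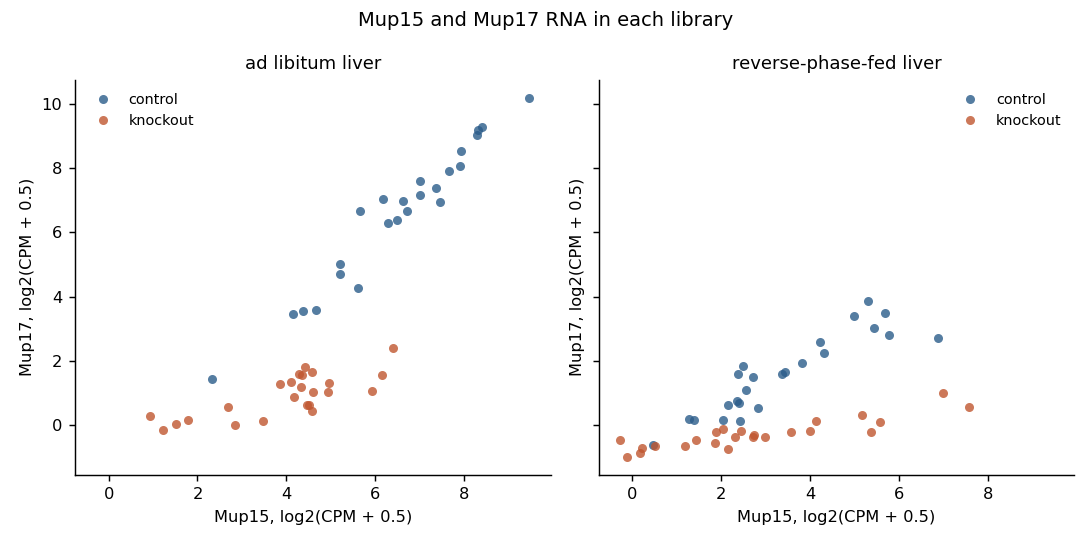
Level of Mup17 against Mup15 in each liver library, both as log2(CPM + 0.5), for the 2 feeding schedules; each point is 1 library. Control libraries rise together in both genes under each schedule, and at a given Mup15 level most knockout libraries lie lower in Mup17, at no more than 4.77 CPM ad libitum.

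Among the 5 more abundant members, 2 of 10 pairs in ad libitum controls had both coefficients past an adjusted permutation p of 0.05, against 5 of 10 in ad libitum knockouts, 7 of 10 in reverse-phase controls and 10 of 10 in reverse-phase knockouts. In the last group r ran from 0.77 to 0.88. Whether the correlations differ between groups was not tested. In ad libitum controls, r of Mup20 with Mup15 dropped from 0.57 to 0.29 and with Mup17 from 0.49 to 0.18 without the 2 farthest libraries, so these relations rest on them.

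Under reverse-phase feeding the median of every member lay below the ad libitum one in both genotypes. These tables were scaled separately and the levels were not tested between schedules. Median control CPM were 4131 against 6351 for Mup3, 552 against 1640 for Mup20, 14.7 against 102 for Mup21, 6.33 against 102 for Mup15 and 2.49 against 124 for Mup17. Mup5 and Mup4 had medians of 0.137 and 0.0985 CPM, and the reverse-phase values of Mup5 did not overlap the ad libitum ones. Feeding, sequencing depth and any other difference between the 2 sets cannot be told apart.

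Mup17 fell again in the reverse-phase knockout. Controls ran from 0.146 over 2.49 to 14.0 CPM and knockouts from 0 over 0.289 to 1.48 CPM, and 15 of 24 controls lay above all knockouts. The daily mean fell by 3.47 (SE 0.41) on the log2 scale, 11.1-fold, and all knockouts lay below all controls at 6 of 8 times (edgeR adjusted p = 4.6e-09). Knockout values rest on a median of 5.75 deposited counts per library.

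Mup21 rose again. It ran from 5.65 over 14.7 to 70.6 CPM in controls and from 11.3 over 30.6 to 186 CPM in knockouts. The daily mean was higher by 1.22 (SE 0.30), 2.32-fold, with a higher knockout mean at 6 of 8 times (edgeR adjusted p = 0.0019).

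The remaining members tested, Mup3, Mup20 and Mup15, did not pass the threshold. Mup3 differed by -0.40 (SE 0.17; edgeR adjusted p = 0.084), with control CPM of 1887 to 6835 and knockout CPM of 864 to 6678. Mup20 differed by 0.39 (SE 0.24; edgeR adjusted p = 0.249), with control CPM of 303 to 1765 and knockout CPM of 237 to 2883. Mup15 differed by -0.45 (SE 0.53; edgeR adjusted p = 0.578), between 0.874 and 117 CPM in controls and 0.331 and 192 CPM in knockouts.

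Mup4 and Mup5 failed the filter on low counts, so 5 of 7 members were tested and 2 were called, 1 in each direction, beside 26.9% of 13810 genes. The sum ran from 2713 over 4690 to 8076 CPM in controls and from 1145 over 3616 to 9203 CPM in knockouts, a difference of -0.25 (SE 0.17; edgeR adjusted p = 0.317). Of the other Mup symbols, 6 of 12 tested were lower and 0 higher.

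**Figure D3:**
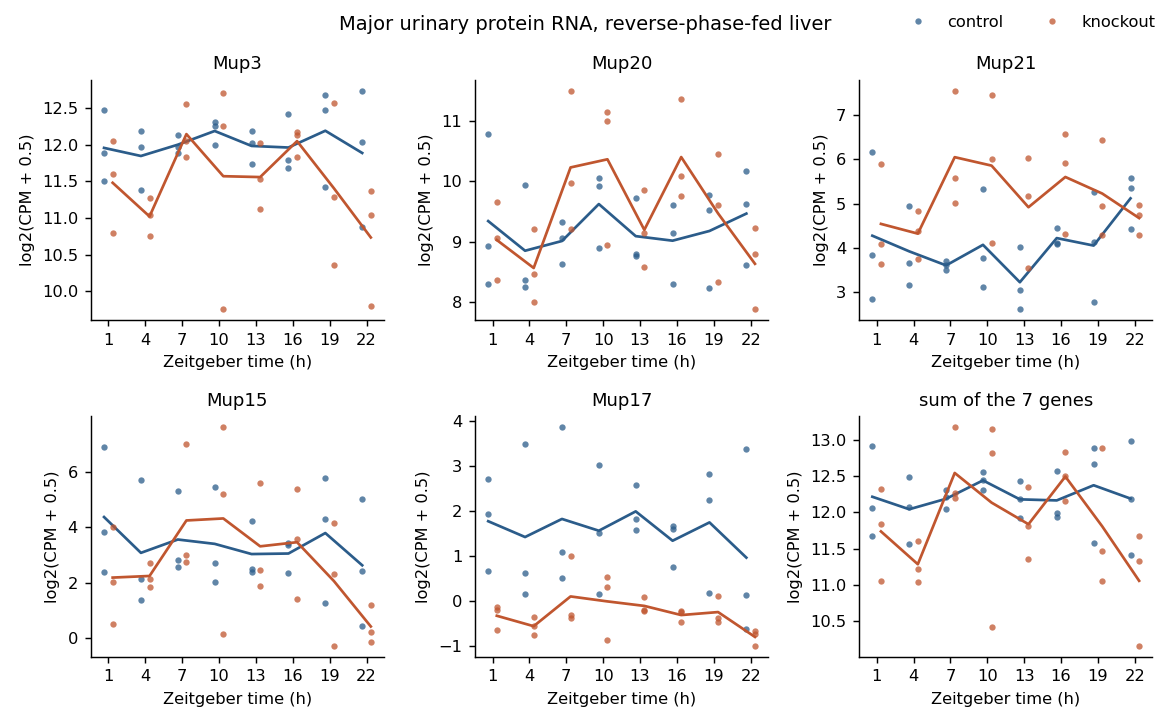
Normalised level of the 5 tested members and of the sum of all 7 in reverse-phase-fed liver, as log2(CPM + 0.5), against zeitgeber time in hours; points are libraries and lines join the means of the log values. Mup17 is lower and Mup21 higher in the knockout, while knockout libraries of Mup3, Mup15 and Mup20 spread more widely than their separation from controls.

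The effect of the knockout was compared between schedules in 1 fit over both liver tables. The difference, reverse-phase minus ad libitum, was 3.48 (SE 0.99) on the log2 scale for Mup17 (unadjusted p = 0.00070, edgeR adjusted p = 0.116) and 2.24 (SE 0.67) for Mup15 (unadjusted p = 0.0012, edgeR adjusted p = 0.157). Both point to a smaller fall under reverse-phase feeding, and neither passed. It was 0.63 (SE 0.32) for Mup21, -0.14 (SE 0.19) for Mup3, -0.03 (SE 0.28) for Mup20 and -0.11 (SE 0.19) for the sum, with adjusted p of 0.737 to 0.9999. Thus 0 of 7 members were called by edgeR, 2 having an unadjusted p under 0.05, beside 0.207% of 13535 genes. DESeq2 called 1, Mup17, at 3.46 (adjusted p = 1.3e-06).

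Daily rhythm was tested by fitting a 24-h cosine wave of free phase to each genotype. Ad libitum, 0 of 7 members passed in controls, beside 48% of all genes, and 0 of 7 in knockouts, beside 44.2%, where 0 had an unadjusted p under 0.05. The nearest was Mup17 in controls, with a fitted peak at ZT 11 and a peak-to-trough ratio of 3.80 (unadjusted p = 0.025, edgeR adjusted p = 0.052), and it was the only member of the 7 in controls with an unadjusted p under 0.05. It passed under 7 of the 9 other settings tried, at adjusted p of 0.0179 to 0.0494, among them the fit without the 2 libraries that stood apart. It also passed without any 1 of 9 control libraries, those of ZT 1 replicate 1, ZT 7 replicates 2 and 3, ZT 10 replicates 2 and 3, ZT 13 replicate 3, ZT 16 replicates 1 and 3, and ZT 22 replicate 2. In 39 of 48 omissions of 1 library Mup17 stayed uncalled. Over all omissions its ratio went down to 2.54 and its edgeR adjusted p up to 0.235. For the sum the ratio was 1.203 in controls and 1.214 in knockouts (edgeR adjusted p = 0.273 and 0.260).

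Under reverse-phase feeding 0 of 5 members passed in controls, beside 41.2% of all genes, and the lowest unadjusted p was 0.125. In knockouts 2 of 5 passed, beside 36.8%. Mup15 had a fitted peak at ZT 10.4 with a peak-to-trough ratio of 21.4 (edgeR adjusted p = 0.0057), on knockout values of 192, 35.7 and 0.629 CPM at ZT 10 and 0.417, 0.662 and 1.79 CPM at ZT 22. Mup20 peaked at ZT 11.9 with a ratio of 3.21 (edgeR adjusted p = 0.033). Without knockout ZT 10 replicate 1, the library with 192 CPM, Mup15 no longer passed and its ratio was 12. Its ratio was 37.6 without knockout ZT 1 replicate 1 and 41.3 with hepatocyte markers as a covariate. The call of Mup20 was lost without any 1 of 7 knockout libraries, those of ZT 1 replicate 3, ZT 4 replicates 1 and 2, ZT 10 replicates 1 and 2, and ZT 22 replicates 1 and 2, with ratios of 2.88 to 3.12.

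The rhythms of the 2 genotypes were then compared directly. None of 7 members passed ad libitum, with 0 at an unadjusted p under 0.05 and beside 3.32% of all genes. None of 5 passed under reverse-phase feeding, where 3 had an unadjusted p under 0.05 and 1.48% of all genes were called. The closest was Mup15 (unadjusted p = 0.0029, edgeR adjusted p = 0.115), which DESeq2 called (adjusted p = 0.028). A rhythm of Mup15 or Mup20 that differs between genotypes was therefore not shown by the edgeR fit.

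Isolated cells held Mup signal alongside hepatocyte RNA. All 12 hepatocyte markers, all of them also expressed in the liver tables, were above 0 in the endothelial and Kupffer libraries, and their summed signal, scaled to the library total used for CPM, was 2839 to 38240 in endothelial and 3185 to 22060 in Kupffer libraries. The median of this sum was 7198 in knockout against 9461 in control endothelial libraries, and 6792 against 9897 in Kupffer libraries. Of the 12 markers, 7 had a higher knockout median in endothelial libraries and 4 in Kupffer libraries. Because signal and CPM were made in different ways, these levels are not compared with those of liver. In endothelial control libraries Mup3 signal correlated with the mean log2 level of these markers at r = 0.97 and rho = 0.80 (12 libraries, permutation p = 6e-05 and 0.0027, adjusted 0.00016 and 0.0059 over 24 relations), and r was 0.97 without the 2 farthest libraries. In Kupffer controls r was 0.97 and rho 0.93 (adjusted permutation p = 4e-05 and 0.00042), and 0.95 without the 2 farthest. For Mup17 the same r was 0.32 in endothelial and 0.33 in Kupffer controls (adjusted permutation p = 0.34 each). The part of hepatocyte RNA in the Mup signal was not tested beyond the fit with these markers as a covariate.

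In endothelial cells Mup17 was the 1 gene of 12523 called lower in the knockout, among 4 called in all (0.0319%; 0.00799% lower and 0.0240% higher). Of 5 members tested, 1 was called. Control signal was 0, 6.78 and 2.96 at ZT 4, then 54.0, 20.1 and 57.3 at ZT 10, then 6.74, 2.32 and 7.13 at ZT 16, and 6.50, 0.926 and 1.05 at ZT 22. Knockout signal was 0 in 7 of 12 libraries and at most 3.85, and 7 of 12 controls lay above it. The difference was -2.41 (SE 0.42) on the log2(signal + 1) scale, which understates changes of low genes (limma adjusted p = 0.020). With a pseudocount of 0.1 it was -4.31 (limma adjusted p = 0.138) and with 10 it was -0.85 (limma adjusted p = 0.133), so the call was lost with both. Mup17 passed the filter through 3 control libraries only, those of ZT 10, so a difference was built into its being tested. The call was lost without the 2 libraries that stood apart, at -2.22 (limma adjusted p = 0.084). Leaving out any 1 of the 3 control ZT 10 libraries dropped Mup17 from the test. It was also lost, at -2.19 to -2.44, without control ZT 4 replicate 2, ZT 16 replicate 3, ZT 22 replicate 1 or ZT 22 replicate 3, or without knockout ZT 4 replicate 2, ZT 10 replicate 1, ZT 16 replicate 1 or ZT 16 replicate 3.

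In Kupffer cells Mup17 was also lower in the knockout, but the isolated cells of 1 number may come from the same livers, so this is not shown to be independent of the endothelial result. Across 9375 genes, deviations from the group mean correlated at a median of 0.36 between same-numbered endothelial and Kupffer libraries of 1 genotype and time. Between other numbers the median was -0.16. Deviations within a group of 3 add up to 0, so this value follows from the first and is no separate baseline. Of 24 endothelial libraries, 22 matched their own number best. For Mup3 the deviations of the 24 pairs correlated at 0.91 and for Mup17 at 0.57, given as a description. Control signal was 0, 11.5 and 3.79 at ZT 4, then 93.8, 30.6 and 25.6 at ZT 10, then 3.31, 14.4 and 14.9 at ZT 16, and 7.11, 4.38 and 4.11 at ZT 22. Knockout signal was 0 in 6 of 12 libraries and at most 2.82, and 11 of 12 controls lay above it. The difference was -2.81 (SE 0.44; limma adjusted p = 0.0061), and Mup17 was the 1 gene of 12270 called lower, among 3 called (0.0244%; 0.00815% lower and 0.0163% higher), so 1 of 5 members tested was called. It passed the filter through 6 control libraries and 0 knockout libraries, so here too a difference was built into its being tested. With a pseudocount of 0.1 the difference was -4.50 and the call was lost (limma adjusted p = 0.117), and with 10 it was -1.05 (limma adjusted p = 0.046). The 3 ZT 10 controls were the highest of the table in both cell types; a rhythm was not tested there.

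The other members did not pass in either cell type. Mup15 differed by -0.86 (SE 0.43) in endothelial cells and -1.18 (SE 0.43) in Kupffer cells (limma adjusted p = 0.927 and 0.9997). Mup21 differed by 0.21 (SE 0.34) and 0.38 (SE 0.42), Mup20 by 0.07 (SE 0.37) and -0.14 (SE 0.42), and Mup3 by -0.21 (SE 0.41) and -0.30 (SE 0.51). Mup4 and Mup5 were not tested: each was listed at 0 in all 24 endothelial libraries and in all but 1 Kupffer library. The sum ran from 348 to 1804 in endothelial controls and 192 to 2484 in knockouts, and from 251 to 2126 and 146 to 2322 in Kupffer cells, with differences of -0.21 (SE 0.39) and -0.32 (SE 0.49). Relative to Alb, summed Mup signal had medians of 36.9 and 40.7 per 1000 in endothelial controls and knockouts. In Kupffer cells they were 49.6 and 55.9, and in liver 86.1 and 97.4 ad libitum and 55.6 and 66.4 in the reverse-phase table. Alb itself had a lower knockout median in all 4 tables, at 3733 against 5165 in endothelial and 2578 against 5269 in Kupffer libraries. A higher ratio in knockouts therefore cannot be read as more Mup RNA. Ratios of signal are not compared with ratios of counts.

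**Figure D4:**
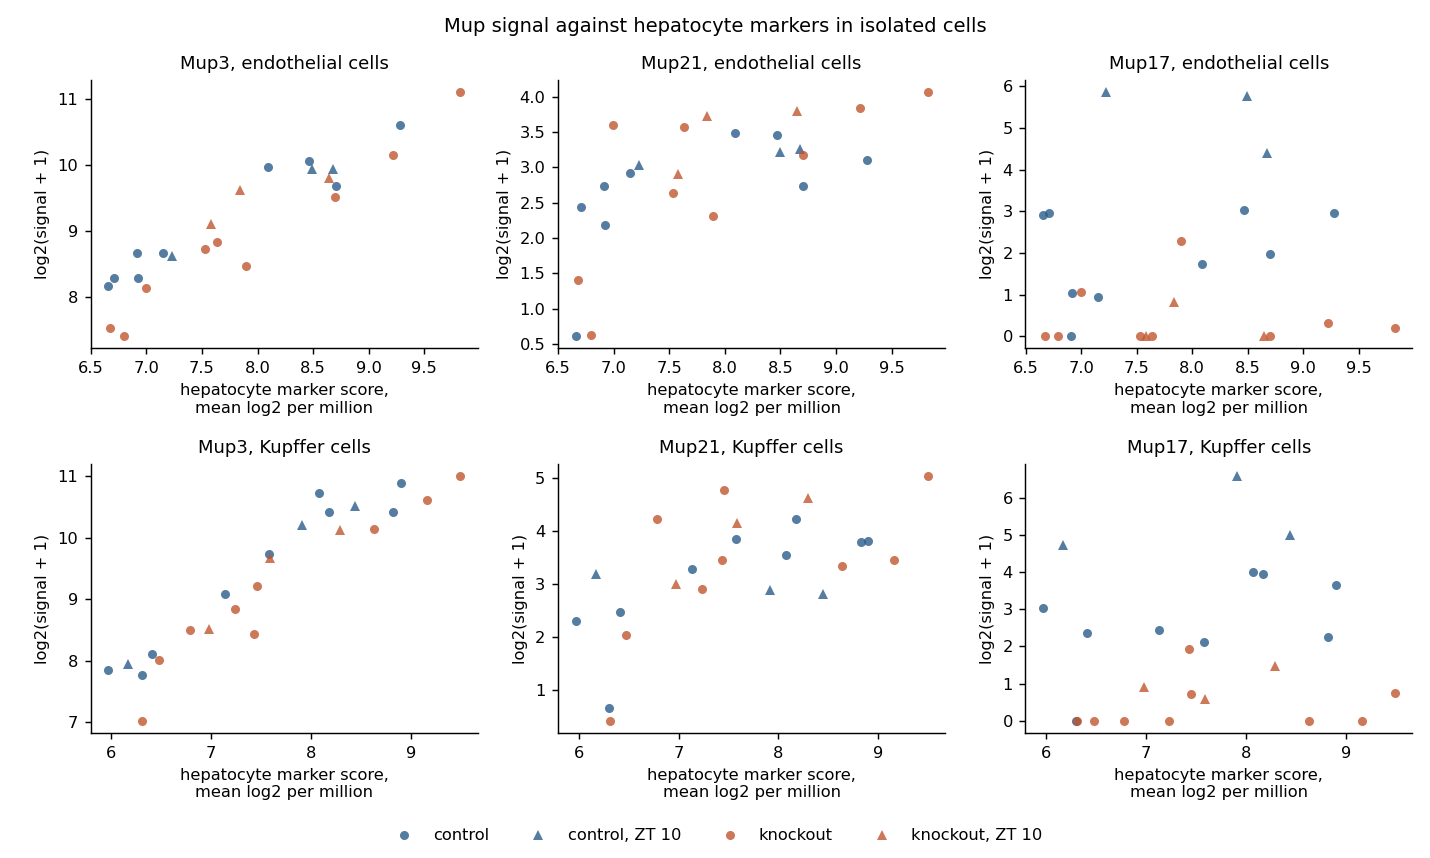
Signal of Mup3, Mup21 and Mup17, as log2(signal + 1), against the mean log2 signal of 12 hepatocyte markers, scaled to a common library total. Endothelial libraries are at the top and Kupffer libraries at the bottom, and triangles are ZT 10. Mup3 follows the markers in both genotypes, whereas Mup17 of knockouts stays at or below 3.85 at any marker level and the ZT 10 controls are highest.

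**Figure D5:**
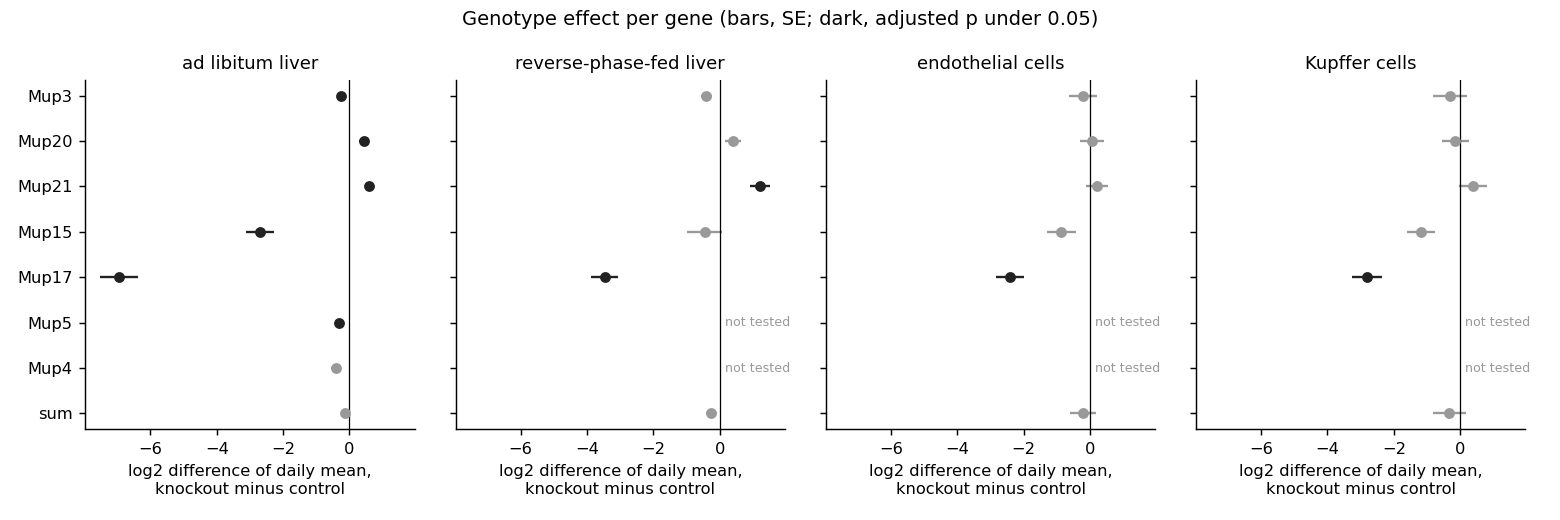
Difference of the fitted daily mean, knockout minus control on the log2 scale, for each member and the sum in the 4 tables; bars are SE and dark points passed an adjusted p under 0.05. Mup17 is lower in all 4, but it entered the endothelial and Kupffer tests through control libraries only, so a difference was built in there. Mup21 passed as higher in both liver tables, and the sum passed in none.

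Genes of growth hormone signalling, the pathway that sets the male pattern of Mup expression, were called about as often as all genes ad libitum, where 27.2% of all genes were called, 13.7% higher and 13.5% lower. Of the pathway, 2 of 16 tested rose and 3 fell, with a median of -0.06 on the log2 scale. Igfbp3, which binds insulin-like growth factors, rose by 0.54 (SE 0.10), and Sh2b1 fell by 0.21 (SE 0.04). In reverse-phase-fed liver, where 26.9% of all genes were called (12.7% higher, 14.2% lower), 3 of 17 rose and 0 fell, with a median of -0.07. They include Stat5b, the transducer of growth hormone pulses, which rose by 0.22 (SE 0.07), and Igfbp3 by 0.47 (SE 0.12).

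Other male-biased liver genes moved both ways, and the counts here and in the lists that follow stand beside the same shares of all genes, 27.2% and 26.9%. Ad libitum 4 of 18 rose and 6 fell, with a median of 0.08. In reverse-phase-fed liver the numbers were 3 and 4, with a median of 0.30. Cyp4a12a, a fatty acid hydroxylase of male liver, fell by 1.38 (SE 0.17) ad libitum and 2.10 (SE 0.26) under reverse-phase feeding, and Cspg5 fell by 2.53 and 2.33. Moxd1 rose by 3.04 (SE 0.80) ad libitum, but under reverse-phase feeding it was not called, at -0.90 (SE 1.45; edgeR adjusted p = 0.70). Of female-biased genes 2 of 16 tested rose and 3 fell ad libitum (median 0.06), and in reverse-phase-fed liver 4 of 23 tested rose and 4 fell (median -0.19). Cyp2a4, a steroid hydroxylase, rose by 2.57 and 5.06, and Cyp17a1, an enzyme of steroid synthesis, by 3.0 and 2.77. The medians over all genes tested were 0.00 and -0.01.

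Among liver transcription factors and hormone receptors, 1 of 18 rose and 9 fell ad libitum, beside 13.7% and 13.5% of all genes, with a median of -0.18. In reverse-phase-fed liver 1 rose and 6 fell, beside 12.7% and 14.2%, with a median of -0.17. Esr1, the oestrogen receptor, fell by 1.06 (SE 0.14) ad libitum and, under reverse-phase feeding, fell by 0.86 (SE 0.16). Nr1i3, a xenobiotic receptor, fell by 0.49 (SE 0.10) ad libitum, and Thra, a thyroid hormone receptor, rose by 0.96 (SE 0.08) under reverse-phase feeding. Of 9 other lipocalins tested, 5 fell under each schedule, and 1 rose ad libitum, with medians of -0.36 and -0.31. They include Orm3, an acute-phase protein, at -1.79 (SE 0.24) and -1.92 (SE 0.33), Orm2 at -0.60 and -1.19, and Lcn2 at -0.86 and -1.01.

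The 10 nearest tested genes outside the cluster, 5 on each side on chromosome 4, were called in either direction about as often as all genes (27.2% and 26.9%). All of their calls were lower in the knockout, beside 13.5% and 14.2% of all genes called lower. Whether the shares differ was not tested. Under each schedule 3 fell and 0 rose: Hsdl2 at -0.29 (SE 0.05) and -0.36 (SE 0.06), Ptbp3 at -0.18 and -0.29, and Slc31a1, a copper transporter, at -0.07 and -0.12. Their medians were -0.10 and -0.09.

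Genes whose level most resembled the family sum were named by Pearson's r over the 48 liver libraries of a table, as a description, both genotypes and all times pooled and sharing depth and library quality. Ad libitum they were Cyp4v3 (0.72), Serpina1a (0.70), Gstp1 (0.70), Cyp7b1 (0.68) and Gstp2 (0.67). Under reverse-phase feeding they were Ces3a (0.87), Gm2083 (0.86), Gstp1 (0.79), Sult2a8 (0.79) and Keg1 (0.77). Gstp1, a glutathione transferase, was on both lists, and the median r over all genes was 0.00 ad libitum and -0.02 under reverse-phase feeding.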

How the data were processed

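RNA of liver, endothelial or Kupffer cells was made into TruSeq libraries, per the labels' protocols. STAR, HOMER and mm9 are given in the submitters' processing notes, and counting settings, strand and read length are not stated there. The liver tables deposited by the authors hold expected counts per transcript, multiples of 0.5 (29.5% and 31.9% of values not whole), rounded here before testing. The values deposited for isolated cells are a signal: all 24 columns of a table share 1 set of sorted values, the form quantile normalisation leaves. Their depth is unknown, shifts common to most genes are removed, and the count test planned for them was replaced.

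Of 34600 transcript rows, the most abundant of each of 24421 symbols was used. Liver counts were fitted in edgeR 4.0.16 under R 4.3.3, with TMM factors, filterByExpr and robust quasi-likelihood dispersion. Isolated-cell values, as log2(signal + 1), were fitted in limma 3.58.1 with trend and robust options, keeping genes that reached 10 in 3 libraries. The model gave each genotype a mean and a 24-h wave, and the effect of genotype is knockout minus control for that mean. For liver, SE was derived from the log2 effect and its F value. The family sum entered as an extra row outside library sizes. Adjusted p-values are Benjamini-Hochberg over everything tested, and under 0.05 is called. Both fits were tested on simulated data.

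Members and gene lists were chosen with earlier results of these data known. All members are named, with up to 3 called genes of the largest change per list and table, the 5 nearest tested genes on each side and the 5 genes most like the sum; some genes this rule names are not reported here. Alternatives were another scaling, filters, pseudocounts, DESeq2 1.42.0, time as a factor, a replicate block, all transcript rows, and each library left out. Added after seeing the data were the sum of 21 symbols, hepatocyte markers as a covariate, and omission of libraries that stood apart. No replicates were copies: the lowest chi-square per degree of freedom between liver replicates was 5.17.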

Additional observations from a re-analysis of the deposited data

How the results depend on the processing

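The number of members called for genotype stayed at 6 or 7 ad libitum and 2 or 3 in reverse-phase-fed liver under every alternative run. With all 21 Mup symbols in the sum, its ad libitum difference was -0.31 (adjusted p = 0.00717), and its difference by feeding turned to 0.07. For the ad libitum control rhythm 1 member, Mup17, was called in place of 0 under DESeq2 size factors, scaling without Mup rows, a mean of at least 1 CPM, the replicate block, all transcript rows added, hepatocyte markers as a covariate, and without libraries that stood apart. With hepatocyte markers as a covariate in reverse-phase-fed liver, the difference of Mup15 turned to 0.42 and that of the sum to 0.00, 1 member was called for control rhythm, and peak-to-trough ratios of the sum passed at 2.41 in controls and 2.75 in knockouts. With DESeq2 the knockout ratio of the sum passed at 2.03, 1 member (Mup15) was called for the rhythm difference, and 1 (Mup17) for the difference by feeding. In endothelial cells 0 members were called with a pseudocount of 0.1 or 10, or without the libraries that stood apart, and Mup20 turned to -0.04 without those and -0.07 with the hepatocyte covariate. In Kupffer cells 0 members were called with a pseudocount of 0.1 and 2 with the hepatocyte covariate, under which the sum was -0.49 (adjusted p = 0.0138). The cause of these changes was not tested.

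Leaving out 1 library at a time, members called ranged from 0 to 1 for control rhythm under each schedule, from 0 to 3 for the reverse-phase knockout rhythm and from 0 to 1 in endothelial cells. The sum ranged from 1.8 to 2.33 for its reverse-phase knockout ratio and from -0.46 to 0.00 in endothelial cells. Mup20 ranged from -0.13 to 0.30 in endothelial and from -0.33 to 0.11 in Kupffer cells. For the difference by feeding, leaving out 1 replicate number at a time, the sum ranged from -0.26 to 0.03, Mup20 from -0.48 to 0.21, Mup5 from -0.66 to 0.27 and Mup4 from -0.78 to 0.07. Mup4 was called ad libitum under 19 alternatives, among them DESeq2 (adjusted p = 0.0351). Over all genes, 4 were called in endothelial cells and 1 with a pseudocount of 0.1, 2 without the libraries that stood apart and 53 with the hepatocyte covariate. The Kupffer numbers were 3, then 1 with a pseudocount of 0.1 and 45 with the covariate. By feeding, 28 became 66 with DESeq2.

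Within a table, replicate numbers showed no general pairing of samples across groups. Same-numbered libraries had median correlations of 0.01, 0.02, 0.02 and 0.06 of their deviations in the 4 tables. In the same order, 87 of 360, 141 of 360, 28 of 84 and 36 of 84 pairs were over 0.1. Single pairs ran from -0.65 to 0.76 in reverse-phase-fed liver, and a pairing of only some groups was not tested. With the replicate block the sum differed by -0.12 ad libitum, -0.24 in reverse-phase-fed liver, -0.21 in endothelial and -0.32 in Kupffer cells, and by -0.12 by feeding. Low counts limit Mup17 in knockout liver and Mup4 and Mup5 under reverse-phase feeding.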
